A study of Mus musculus with 8 samples.

Results

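Inhibitory interneurons are a small share of hippocampal neurons, and 10 genes that mark them were followed here in the hippocampus of female mice given dehydroepiandrosterone (DHEA), an adrenal androgen precursor, or its sesame oil vehicle. The genes were picked by symbol for GABA synthesis and for interneuron subclasses, by a rule with no threshold on a measured value, and all 10 were found among the 29442 genes of the count table. The polyA RNA came from female C57BL/6 J mice, 6 to 8 weeks old, and the study's methods place the dissection in the ventral hippocampus, whereas the labels say hippocampus. The DHEA group received 30 mg/kg/day by abdominal subcutaneous injection for 21 days and the sesame oil group received the vehicle for the same 21 days, with 4 libraries in each group. Mice had been through behavioral tests before dissection. Between 35748416 and 38038361 reads were assigned to genes in the DHEA libraries and between 31483772 and 35418297 in the sesame oil libraries. Libraries are named here by group and replicate, and each direction follows the treatment label deposited with the library. The study's methods give n = 4 for each group and describe dividing the hippocampal tissue of each mouse by side, with a part used for RNA-seq. The labels do not say that each library came from a separate animal, so p-values measure only the spread between these libraries.

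Interneurons release GABA, which restrains the firing of the glutamatergic principal cells. GABA is made from glutamate by the glutamate decarboxylases encoded by Gad1 and Gad2 and is loaded into synaptic vesicles by the vesicular transporter encoded by Slc32a1, so these 3 genes mark nearly all GABAergic neurons. The other 7 genes divide the population into subclasses. Parvalbumin (Pvalb) marks fast-spiking basket and axo-axonic cells, somatostatin (Sst) and neuropeptide Y (Npy) mark many dendrite-targeting cells, vasoactive intestinal peptide (Vip) marks cells that often contact other interneurons, and cholecystokinin (Cck) marks a further type of basket cell. Reelin (Reln) and Lamp5 mark neurogliaform and related cells. Cck is also transcribed in principal cells, and Reln in Cajal-Retzius cells.

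The stretch before the start site is shown for the 4 genes whose promoter held a piece of the cAMP response element, a motif through which neuronal activity is known to drive neuropeptide genes such as Sst. Windows of 250 bases upstream of the start were read from RefSeq (build GRCm38.p6) for all 10 genes. The whole element, TGACGTCA, occurred on either strand in 1.55% of 32851 windows and, among the 10 genes, in that of Sst, 48 bases before the start. Its 5-base part, TGACG or CGTCA, which the whole element contains, occurred in 17.8% of windows and in those of Sst, Vip, Cck and Gad2. The androgen response element in its full form, AGAACA followed after any 3 bases by TGTTCT, was in 0.00913% of windows and in 0 of the windows of these genes. Its 6-base part alone, AGAACA or TGTTCT, was in 16.1% of windows and in that of Lamp5. A match describes the letters and is not evidence of binding. The last 120 bases before the start are given 5′ to 3′ on the gene's strand, with the match in capitals, for Sst (chr16:23890845-23890964, minus strand), Vip (chr10:5639098-5639217, plus strand), Cck (chr9:121495695-121495814, minus strand) and Gad2 (chr2:22622207-22622326, plus strand).
Sst: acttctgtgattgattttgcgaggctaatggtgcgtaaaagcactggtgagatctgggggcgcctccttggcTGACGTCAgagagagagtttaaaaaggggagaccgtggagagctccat
Vip: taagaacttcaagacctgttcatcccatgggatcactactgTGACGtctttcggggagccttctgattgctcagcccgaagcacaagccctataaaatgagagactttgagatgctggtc
Cck: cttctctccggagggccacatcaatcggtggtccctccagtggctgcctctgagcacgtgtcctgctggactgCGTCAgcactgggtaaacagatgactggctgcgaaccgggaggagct
Gad2: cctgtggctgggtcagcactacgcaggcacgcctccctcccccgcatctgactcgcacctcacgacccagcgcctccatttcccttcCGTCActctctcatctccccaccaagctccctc

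None of the 10 interneuron genes passed a test between the 4 DHEA and 4 sesame oil libraries, and the largest difference, that of Lamp5, was 0.12 on the log2 scale. By edgeR's quasi-likelihood test, 0 of 10 had an unadjusted p under 0.05, while 9.31% of the 27612 genes tested did, 4.82% being higher and 4.49% lower with DHEA. Adding the study's fold threshold of 2 left 1.6% of genes tested and 0 of 10 members. After Benjamini-Hochberg adjustment 0% of genes tested and 0 of 10 members were called. DESeq2 called 153 genes after adjustment and 2267 at an unadjusted p under 0.05, with 0 members in either set. The groups overlapped for all 10 members in CPM (counts scaled to a common library size by TMM), while they did not overlap for 5.04% of genes tested. The members are abundant, with 442 to 11446 reads per library, so the 8344 genes whose mean count reached 605.4, the lowest among the members, are a closer background. Of those genes, 18.9% had an unadjusted p under 0.05 and 10.1% had groups that did not overlap.

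The differences of the members lay on both sides of 0, with 6 positive and 4 negative and a median of 0.02. The median over all genes tested was 0.01. In size they had a median of 0.07, against 0.09 for the genes of like abundance. Every 95% interval included 0, and together the intervals ran from a fold of 0.810 for Reln to 1.42 for Lamp5, so a halving or a doubling lay outside all of them. In tissue RNA, fewer cells of a type and less RNA in each cell cannot be told apart.

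**Figure D1:**
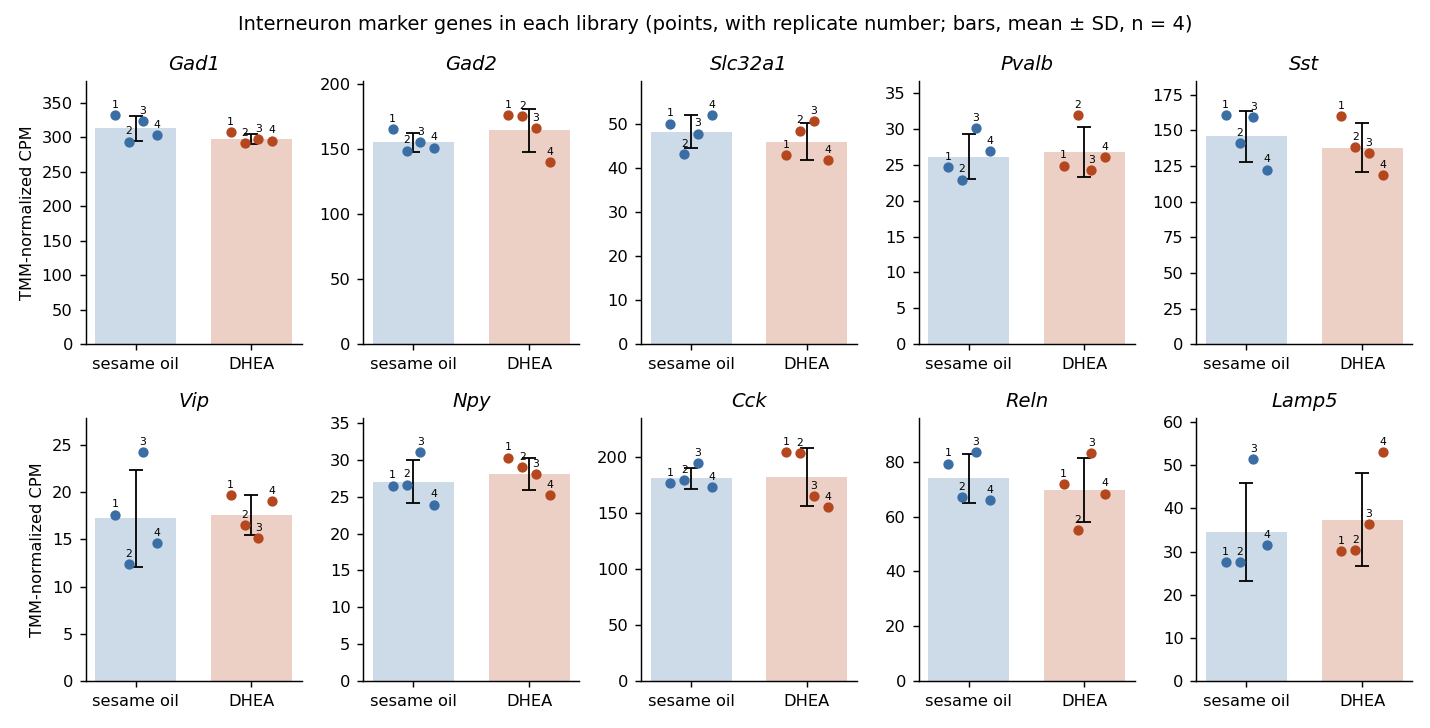
TMM-normalized CPM (vertical axes, starting at 0) of each interneuron gene in the 4 sesame oil and 4 DHEA libraries, with bars for the mean and error bars for the SD. Points carry the replicate number, and the groups overlap in all 10 panels, with Lamp5 highest in DHEA 4 and sesame oil 3.

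Of the genes shared by GABAergic neurons, Gad1 was the steadiest member. Its CPM was 308, 291, 297 and 295 in DHEA 1 to 4 and 332, 294, 324 and 303 in sesame oil 1 to 4. All DHEA libraries lay in the lower part of the sesame oil range or just beneath it. The log2 fold change was -0.07 (SE 0.0589, 95% interval -0.19 to 0.05), with an adjusted p of 0.666 by edgeR (quasi-likelihood, Benjamini-Hochberg). The coefficient of variation over the 8 libraries was 4.87%, the smallest among the members.

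Gad2, which encodes the decarboxylase enriched at synaptic terminals, went the other way in 3 of 4 DHEA libraries. Its CPM was 176, 176, 166 and 140 with DHEA and 165, 149, 156 and 151 with sesame oil. DHEA 1 to 3 stood above all sesame oil libraries and DHEA 4 stood below them. The log2 fold change was 0.08 (SE 0.0719, 95% interval -0.07 to 0.23), with an adjusted p of 0.666 (edgeR quasi-likelihood, Benjamini-Hochberg). Single libraries moved this value in both directions. Without DHEA 4 the log2 fold change was 0.15 with an unadjusted p of 0.0247 in edgeR's quasi-likelihood test, and the groups no longer overlapped. It was 0.05 without DHEA 1 and 0.04 without DHEA 2, with unadjusted p-values of 0.526 and 0.560 in the same edgeR test. Gad2 transcripts have a GC content of 44.1%, and after the GC trend of each library was removed the log2 fold change over all 8 libraries was 0.04 (unadjusted p of 0.568 in the same edgeR test). Over genes, the Pearson correlation of log2 CPM with GC content was -0.069 to -0.058 in the DHEA libraries. It was -0.053 to -0.046 in the sesame oil libraries, so the groups did not overlap.

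Slc32a1, the vesicular GABA transporter, had 43.0, 48.6, 50.7 and 41.9 CPM with DHEA and 50.2, 43.3, 47.9 and 52.0 CPM with sesame oil. The groups covered nearly the same range. Its log2 fold change was -0.07 (SE 0.0804, 95% interval -0.24 to 0.10), with an adjusted p of 0.742 by edgeR with Benjamini-Hochberg adjustment. Its transcripts have the highest GC content of the members, 61.9%, and with the GC trend removed the log2 fold change was -0.02.

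Pvalb, a calcium-binding protein, had 24.9, 31.9, 24.3 and 26.1 CPM with DHEA and 24.7, 22.9, 30.1 and 26.9 CPM with sesame oil. One library of each group, DHEA 2 and sesame oil 3, was higher than the rest, and the log2 fold change was 0.04 (SE 0.103, 95% interval -0.18 to 0.25). Sst, an inhibitory peptide, had 160, 138, 134 and 119 CPM with DHEA and 160, 141, 159 and 122 CPM with sesame oil. The lowest library of each group was replicate 4, and the log2 fold change was -0.08 (SE 0.0912, 95% interval -0.27 to 0.11). Npy, a peptide that dampens glutamate release, had 30.3, 29.0, 28.1 and 25.2 CPM with DHEA and 26.5, 26.7, 31.1 and 23.95 CPM with sesame oil. Replicate 4 was again the lowest of its group for Npy, and the log2 fold change was 0.06 (SE 0.0915, 95% interval -0.13 to 0.25). The adjusted p-values of Pvalb, Sst and Npy were 0.920, 0.722 and 0.838 by edgeR (quasi-likelihood, Benjamini-Hochberg).

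Vip, the least abundant member by count, had 19.7, 16.5, 15.1 and 19.0 CPM with DHEA and 17.6, 12.4, 24.3 and 14.6 CPM with sesame oil. The sesame oil group held both the lowest and the highest library. Its log2 fold change of 0.03 therefore had a wide 95% interval of -0.30 to 0.36 (SE 0.157). Its GC content is the lowest of the members, 38.7%, and with the GC trend removed the log2 fold change was -0.05, on the other side of 0. Among the 10 GC-corrected values that of Vip alone changed sign, and 0 of 10 members had an unadjusted p under 0.05 in that edgeR fit. Cck, a peptide shared with principal cells, had 204, 203, 165 and 155 CPM with DHEA and 177, 179, 194 and 173 CPM with sesame oil. The DHEA libraries fell into 2 above and 2 below all sesame oil libraries, and the log2 fold change was 0.01 (SE 0.0826, 95% interval -0.17 to 0.18). The adjusted p was 0.967 for Vip and 0.984 for Cck in the edgeR fit with Benjamini-Hochberg adjustment.

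Reln, a large secreted glycoprotein that signals through lipoprotein receptors, had 71.8, 55.1, 83.2 and 68.4 CPM with DHEA and 79.3, 67.0, 83.5 and 65.9 CPM with sesame oil. DHEA 2 was the lowest of the 8 libraries, and the log2 fold change was -0.09 (SE 0.104, 95% interval -0.30 to 0.13), with an adjusted p of 0.753 by edgeR with Benjamini-Hochberg adjustment. Without DHEA 2 it was 0.00268, and without DHEA 3 it was -0.18, with unadjusted p-values of 0.976 and 0.0739 in the edgeR test. Markers of Cajal-Retzius cells, which also make reelin, were low throughout, the most abundant of 4 being Trp73 at a mean of 4.54 CPM. Their summed CPM was 8.94 ± 1.79 (SD, n = 4) with DHEA and 6.72 ± 1.18 (SD, n = 4) with sesame oil (exact permutation p = 0.143). All 4 had a positive log2 fold change, with a median of 0.58, and 0 of 4 had an unadjusted p under 0.05 by edgeR. Their part in the Reln values was not tested.

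Lamp5, a membrane protein taken here as a marker of neurogliaform and related cells, varied most, with a coefficient of variation of 29.0% over the 8 libraries. It had 30.1, 30.3, 36.3 and 53.1 CPM with DHEA and 27.6, 27.5, 51.4 and 31.5 CPM with sesame oil. One library of each group stood far above the others, DHEA 4 and sesame oil 3. The log2 fold change was 0.12 (SE 0.185, 95% interval -0.27 to 0.51), with an adjusted p of 0.833 by edgeR with Benjamini-Hochberg adjustment. The value rested on those libraries, being -0.10 without DHEA 4 (unadjusted p of 0.556 in the edgeR test) and 0.37 without sesame oil 3 (unadjusted p of 0.0291 in the same test). Among markers of neocortex and entorhinal cortex, Rspo1 was also highest in these libraries, at 1.998 CPM in DHEA 4 and 1.87 CPM in sesame oil 3, with 0.617 to 1.03 CPM elsewhere. The summed CPM of all 7 such markers, the most abundant being Hs3st4, was 252 in sesame oil 3 and 202 in DHEA 4, within a range of 201 to 223 over the libraries other than sesame oil 3. Their part in the Lamp5 values was not tested. Ndnf, listed here with other genes of Vip, Cck and Lamp5 cells, did not share the Lamp5 peak in DHEA 4. Ndnf had 13.8 CPM there and 23.7 to 30.6 CPM in DHEA 1 to 3. In sesame oil 1 to 4 Ndnf had 30.4, 10.9, 25.2 and 11.35 CPM. Which cells the Lamp5 RNA came from was not tested.

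**Figure D2:**
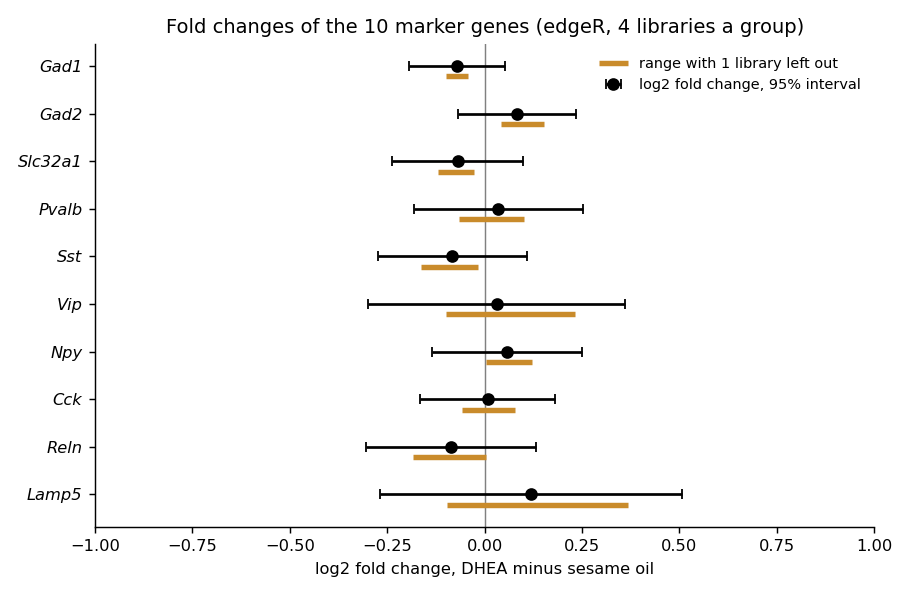
Log2 fold change of each gene, DHEA minus sesame oil (horizontal axis), with its 95% interval from edgeR (black) and the range of values when 1 library was left out in turn (ochre). All 10 intervals cross 0, and Lamp5 has the widest range, from -0.10 to 0.37.

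The exact permutation test on the mean CPM, 2-sided over 70 allocations and able to reach a p of 0.0286 at the smallest, gave values between 0.229 for Gad1 and 0.943 for Vip and Cck. When the libraries were dropped singly, the log2 fold changes of Gad1, Gad2, Slc32a1, Sst and Npy kept their sign in all 8 fits. Those of Pvalb, Vip, Cck, Reln and Lamp5 changed sign in at least 1 of them.

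The members covered a wide range of levels per transcript length, read from the deposited FPKM (fragments scaled by transcript length and library size). Cck and Sst were at the top, with mean FPKM of 150.5 ± 12.7 and 146 ± 16.7 (SD, n = 8). Cck was above Sst in 5 of 8 libraries, so these neighbours did not differ beyond their spread. Gad1 followed at an FPKM of 58.1 ± 3.21 (SD, n = 8) and did not overlap with Sst, whose mean was 2.52 times higher. Npy, at an FPKM of 48.7 ± 3.84 (SD, n = 8), was below Gad1 in 8 of 8 libraries although the ranges overlapped. Pvalb, at an FPKM of 25.4 ± 2.71, and Gad2, at 18.5 ± 1.27 (both SD, n = 8), stood apart from each other and from Npy. Gad2 was above Lamp5 in 6 of 8 libraries and their ranges overlapped, and Lamp5, Slc32a1 and Vip followed with mean FPKM of 13.1, 11.6 and 10.8, each overlapping the gene before it in this order. Reln was the lowest at an FPKM of 6.14 ± 0.882 (SD, n = 8), under Vip in 8 of 8 libraries. Gad1 thus exceeded Gad2 per length, and the peptides Cck, Sst and Npy exceeded Vip.

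**Figure D3:**
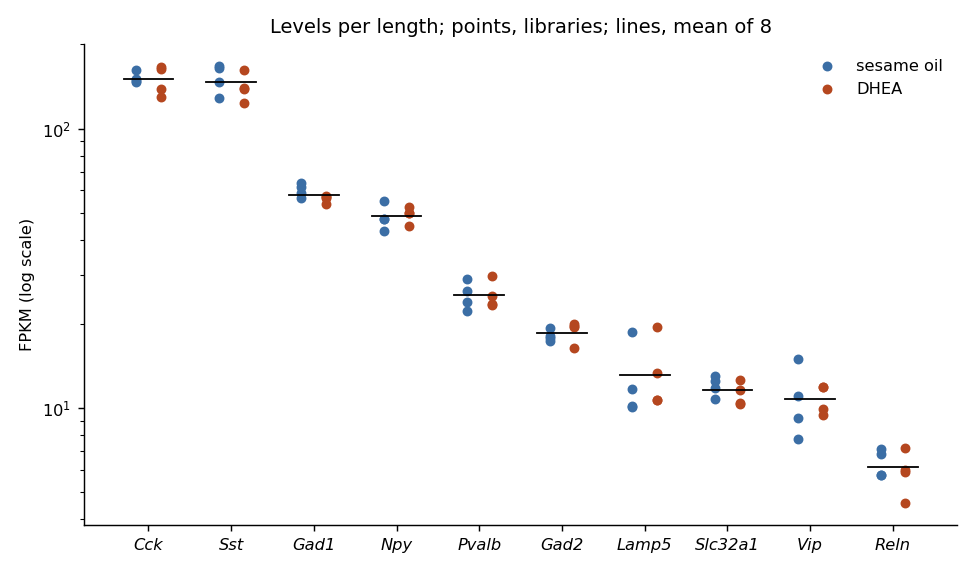
FPKM (vertical log axis) of the 10 genes in order of their mean, with a point per library and a line at the mean of 8 libraries. Cck and Sst lie near 150 and Reln near 6.14, and the colors of the groups intermix in every gene.

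Ratios within a library do not depend on the scaling between libraries and ask whether one subclass gene changed against the shared GABAergic genes. Cck and Reln are also transcribed in other cells, so their ratios do not describe a subclass alone. Each of the 7 subclass genes was divided by the sum of Gad1 and Gad2. The groups overlapped for 7 of 7 ratios, and the smallest exact permutation p, unadjusted and 2-sided, was 0.343 for Npy. The other ratios were formed after their values had been seen. The ratio of Gad2 to Gad1 was 0.572, 0.603, 0.559 and 0.476 with DHEA and 0.499, 0.507, 0.482 and 0.4998 with sesame oil. DHEA 1 to 3 exceeded every sesame oil library and DHEA 4 was beneath them all, and the exact permutation p over all 8 libraries was 0.143. Leaving out each library in turn gave log2 differences of 0.10 to 0.22 and exact permutation p-values of 0.0286 to 0.257, the lowest, which is the smallest that 7 libraries allow, without DHEA 4. The ratio of Slc32a1 to Gad1 plus Gad2 had an exact permutation p of 0.514. The ratio of Gad1 plus Gad2 to Slc17a7, the vesicular glutamate transporter of principal cells, was 0.473 ± 0.0228 with DHEA and 0.449 ± 0.0284 with sesame oil (SD, n = 4, exact permutation p = 0.257).

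Correlations between the members across the 8 libraries were mostly weak. Of 45 pairs, 34 had a positive Pearson r, with a median of 0.27, and the members shared library and depth. Npy and Cck had the highest value (r = 0.74, exact permutation p = 0.0404, Spearman rho = 0.74, exact permutation p = 0.0458), and r was 0.83 without the 2 libraries farthest from the median of Npy. Sst and Npy followed (r = 0.73, exact permutation p = 0.0469, rho = 0.52, exact permutation p = 0.197), with r = 0.89 without the 2 farthest libraries. After adjustment over the 45 pairs the smallest exact permutation p was 0.558, so 0 pairs passed. Sst, Npy and Cck were all below their mean in replicate 4 of both groups. Sesame oil 3 was above the mean for 9 of 10 members, and Gad2 was the exception.

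**Figure D4:**
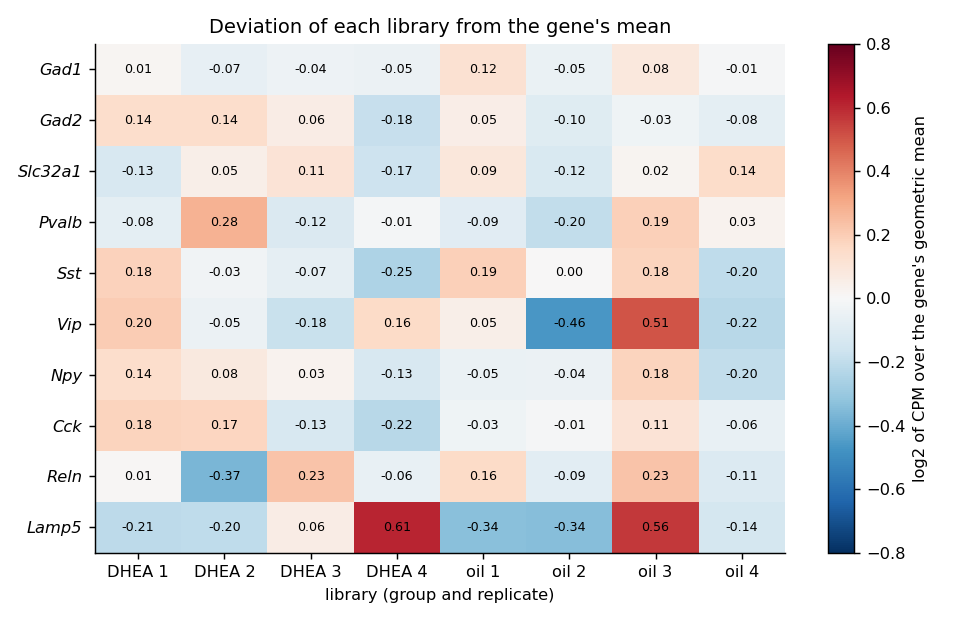
Log2 of each library's CPM over the gene's geometric mean across 8 libraries, for the 10 genes (rows) and 8 libraries (columns), red above and blue below the mean. Lamp5 in DHEA 4 (0.61) and sesame oil 3 (0.56) and Vip in sesame oil 3 (0.51) and sesame oil 2 (-0.46) are the deepest cells.

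Among 12770 genes averaging 100 or more counts, those most like the mean log2 CPM of Gad1, Gad2 and Slc32a1 over the 8 libraries were Ankrd34b (r = 0.95), Ubac1 (r = 0.95), Nr2e1 (r = 0.94), Slco3a1 (r = 0.93) and Ptprt (r = 0.93). The most opposed were Atxn3 (r = -0.94) and Tmem229b (r = -0.93). These values describe 8 libraries and were picked as the extremes of many genes.

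The wider GABA system was read from lists of related genes. Of 6 genes of GABA transport and breakdown, 0 had an unadjusted p under 0.05 and the median log2 fold change was 0.01. Abat, the transaminase that degrades GABA, had a log2 fold change of 0.08. Abat had 281, 289, 281 and 282 CPM with DHEA and 269, 257, 274 and 268 CPM with sesame oil, so its groups did not overlap. Groups did not overlap for 5.04% of genes tested and for 10.1% of those at least as abundant as the lowest member. The unadjusted p of Abat was 0.0286 by exact permutation, the smallest possible, and 0.137 by edgeR's quasi-likelihood test.

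Of 14 transcription factors of interneuron development, 1 had an unadjusted p under 0.05 and was higher, namely Maf (log2 fold change 0.26, unadjusted p of 0.0249 and adjusted p of 0.463 by edgeR with Benjamini-Hochberg adjustment), and the list's median was 0.03. Of 15 other genes of Pvalb and Sst cells, 1 was lower by this rule, Kcnc1, a potassium channel of fast-spiking cells that other neurons also use (-0.19, unadjusted p of 0.0149, edgeR), with a list median of -0.07. Of 11 other genes of Vip, Cck and Lamp5 cells, 1 was higher and 1 lower. Id2, a transcriptional inhibitor that glia also express, was higher (0.35, unadjusted p of 0.000823, edgeR), and Kit, a receptor kinase, was lower (-0.21, unadjusted p of 0.0216, edgeR). Their adjusted p-values were 0.409 for Kcnc1, 0.241 for Id2 and 0.441 for Kit by edgeR with Benjamini-Hochberg adjustment, so none of them passed. For these counts the background is 9.31% of all genes tested with an unadjusted edgeR p under 0.05. Among genes at least as abundant as the lowest member it is 18.9%.

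The perineuronal net, the matrix around many Pvalb cells, had 0 of 6 genes with an unadjusted p under 0.05 and a median log2 fold change of -0.02, with Tnr at -0.05 and Ncan at -0.02. Receptors for somatostatin, neuropeptide Y, vasoactive intestinal peptide, cholecystokinin and reelin formed a list of 15 genes together with Dab1. Of these, 0 of 15 had an unadjusted p under 0.05, and the list's median was -0.09. Dab1, the adaptor of reelin signaling, had 0.05 and Vldlr, a reelin receptor, had 0.11. They were the most abundant of the list and were among the 5 of 15 with a positive value. Sstr4 had -0.26 and Vipr1 had -0.25, with unadjusted p-values of 0.0503 and 0.0576 by edgeR. Sstr5 and Cckar had 0 counts in at least 1 library.

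Markers of the principal cells that surround the interneurons were read next. All 9 markers of excitatory hippocampal neurons were detected in every library, Camk2a at a mean of 3808 CPM and Slc17a7 at 1012 CPM. Of these, 0 of 9 had an unadjusted p under 0.05. The listed markers of neocortex, thalamus and striatum were also detected in every library, so detection alone cannot check the tissue label. Glial and vascular markers were read in the same libraries. All 6 oligodendrocyte markers had an unadjusted p under 0.05 and were higher with DHEA, with a median log2 fold change of 0.39, and their summed CPM was 6584 ± 816 with DHEA and 4983 ± 727 with sesame oil (SD, n = 4). The most abundant, Mbp, had 0.39, and Cnp and Mobp had 0.42 and 0.38. Higher by the same rule were 4 of 6 astrocyte markers (S100b, Gfap, Gja1 and Slc1a3, 0.15 to 0.37), 2 of 5 microglial markers (among them P2ry12 at 0.37) and 3 of 5 endothelial markers (Slco1a4 at 0.38, Ly6c1 at 0.43 and Pecam1 at 0.30). None of these passed after Benjamini-Hochberg adjustment in edgeR. The share with an unadjusted p under 0.05 was 9.31% of all genes tested and 18.9% of genes at least as abundant as the lowest member. The part of the glial and vascular RNA in the interneuron values was not tested.

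Markers of neighboring tissue were read because GABAergic genes are also strong in some of it. Of 9 striatal and amygdalar markers, 1 was higher at an unadjusted p under 0.05, against 9.31% of all genes tested. It was Six3 (0.83, unadjusted p of 0.0101 and adjusted p of 0.376, edgeR with Benjamini-Hochberg adjustment), at a mean of 1.85 CPM. The most abundant, Pde10a, had 86.3 CPM. Of 6 thalamic markers 0 differed, with Plekhg1 at 0.11 and Slc17a6 at 0.20. Of 7 neocortical and entorhinal markers, 1 was lower, Fezf2 (-0.39, unadjusted p of 0.00115 and adjusted p of 0.2455, edgeR with Benjamini-Hochberg adjustment). Choroid plexus RNA differed widely between libraries without separating the groups, with Ttr at 60.4 CPM in DHEA 2, 433 CPM in sesame oil 4 and 1809 to 4015 CPM in the rest. Kl, of the same tissue, had a log2 fold change of 0.43 and 0 of 6 choroid plexus genes passed. The mean log2 CPM of Gad1, Gad2 and Slc32a1 was 7.09 in DHEA 2 and 7.07 in sesame oil 4. It was lowest in DHEA 4, at 6.92, where the summed choroid plexus CPM was 4120. In DHEA 1, where that sum was highest at 4431, it was 7.06. The part of choroid plexus RNA in these values was not tested.

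**Figure D5:**
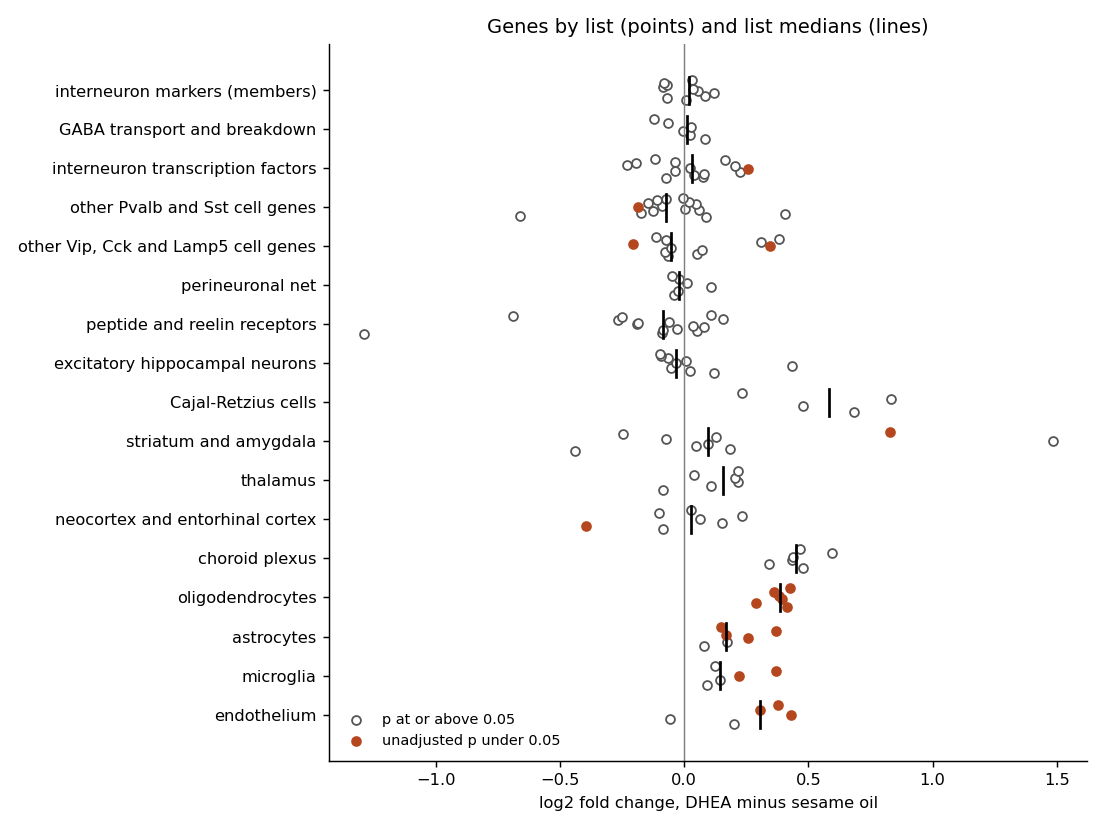
Log2 fold change, DHEA minus sesame oil (horizontal axis), of the genes of each list (rows), filled where the unadjusted edgeR p is under 0.05, with a line at the list's median. The interneuron markers lie between -0.09 and 0.12 and hold 0 filled points, while all 6 oligodendrocyte markers are filled.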

How the data were processed

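The authors extracted RNA with TRIzol, prepared polyA libraries with the VAHTS Universal V6 kit, sequenced them as paired ends, mapped reads with HISAT2 and counted them with HTSeq. The submitters' processing notes name fastp and the build GRCm39, and versions and annotation are not given in the sources used here. The authors deposited read counts per gene and FPKM, both used here. Library totals are given with the results. Genes with at least 1 count were tested with edgeR 4.0.16 (quasi-likelihood F test, TMM, prior count 0.125) in R 4.3.3, with Benjamini-Hochberg adjustment over all 27612 genes. No covariate was used, since the labels give no batch or pairing. Single values were compared by exact permutation over the 70 allocations. DESeq2 1.42.0, the study's tool, and limma 3.58.1 on log2(FPKM + 1) were alternatives, with other filters, scalings and each library left out. GC content was taken from GENCODE transcripts for 92.7% of 16813 genes.

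The 10 members, the other gene lists and the tests were chosen with earlier results of these data known. Named genes were all members, up to 4 genes per list with an unadjusted p under 0.05 or else the 2 most abundant, and the 5 most and 2 least like the mean of Gad1, Gad2 and Slc32a1. Other genes named were chosen after their values were seen. Some genes that this rule names are not reported here. Directions follow the treatment labels of the libraries. The study's own list of changed genes, and its qRT-PCR in further hippocampal samples, carry signs opposite to those these labels give, and which is right could not be settled here, so every direction printed holds only if the labels do. The labels' design text speaks of 6 tissues, while 8 libraries were analysed, and the accessions of replicate 4 of each group were issued apart from the rest.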

Additional observations from a re-analysis of the deposited data

Results flagged for a closer look

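Lamp5 CPM in the sesame oil group was marked because 1 library lay far from the other 3. Sesame oil 3 had 51.4 CPM and the others 27.5 to 31.5 CPM, a gap of 0.833 of the group's range which is just above Dixon's 95% critical value for 4 libraries. Of 40 groups of values examined 1 was marked, where chance alone would mark about 2.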

How the results depend on the processing

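The 10 members were recomputed under 19 alternatives, of which the removal of the GC trend was chosen after seeing the data. Of 190 member values, 165 kept their sign with p at or above 0.05, 23 in 6 members had the other sign with p at or above 0.05, and 2 had an unadjusted p under 0.05. Members with an unadjusted p under 0.05 numbered 0 to 1 with 1 library left out, the exceptions being Gad2 without DHEA 4 and Lamp5 without sesame oil 3. Over all genes, 3236 had an unadjusted p under 0.05 without DHEA 4 and 2051 without sesame oil 3. With all libraries it was 2571 of 27612 genes. Members whose groups did not overlap numbered 0 to 1 with 1 library left out and 1 without replicate 4 of both groups. The number of genes with an unadjusted p under 0.05 and a fold of at least 2 was 442 in edgeR, 164 in DESeq2, 284 with at least 10 counts, 62 with filterByExpr, and 1, 48 and 2 in limma on log2(FPKM + 1), log2(FPKM + 0.1) and log2(FPKM + 1) with a mean FPKM of at least 0.1, and 361 to 512 with 1 library left out. Genes with an adjusted p under 0.05 numbered 0 in edgeR, 153 in DESeq2, 4 with robust moderation, 1 in limma with a mean FPKM of at least 0.1, 38 without replicate 4 of both groups, and 0 to 93 with 1 library left out, the highest without DHEA 3. The cause of these shifts was not tested. The counts of the 7 subclass ratios and of correlated pairs that passed stayed at 0 under the alternatives run, while the ratio of Gad2 to Gad1, formed after its values were seen, had an exact permutation p of 0.0286 without DHEA 4. No paired analysis was possible because the numbers in the libraries' titles are not shared between the groups, and the replicate numbers used here only follow accession order and pair no libraries. With 4 libraries a group, the 95% intervals of Lamp5 and Vip reach up to 1.42 and 1.28 fold, so changes within them are not excluded by these data.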
